A study of Mus musculus with 24 samples.

Results

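The 43 genes described here encode Wnt ligands, their receptors and co-receptors, their secreted antagonists, the R-spondin axis and the beta-catenin axis. They are the rows, among 16233 genes measured in mouse inguinal white adipose tissue, whose symbol is Wnt, Fzd, Sfrp, Dkk or Rspo with a number, or one of a short list of named co-receptors and transducers. They fall into 11 ligands, 12 receptors and co-receptors, 6 antagonists, 8 genes of the R-spondin axis and 6 of the beta-catenin axis. A further 12 symbols that match the same rule (Dkk1, Dkk4, Rspo4, Wif1, Wnt1, Wnt10a, Wnt3, Wnt3a, Wnt7a, Wnt7b, Wnt8a and Wnt9b) were not analysed here. The symbols alone chose the genes; no measured value did.

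The tissue, a subcutaneous fat depot, came from male C57BL6 mice aged 10 to 11 weeks, and the design text addresses how the hour of a single exercise bout bears on adipose tissue afterwards. There were 4 groups of 6 libraries: ZT15 RUN (exercised for 1 hour, early active phase), ZT15 SED (a sham hour on an artificial treadmill, same phase), ZT3 RUN (exercised, early rest phase) and ZT3 SED (sham, early rest phase). ZT counts hours from lights on, and by the labels it is the sampling time; the labels give no hour after the bout. The labels name no allele or drug. The exercise comparisons set the bout against the sham hour. The design text gives n = 6 per group, which equals the number of libraries in each. Nothing in the labels states that each library is its own mouse. The p-values therefore rest on the spread among libraries, which may in part be technical.

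Wnt proteins are lipid-modified secreted ligands that bind Frizzled receptors together with the co-receptors Lrp5 and Lrp6. In the canonical branch this halts the destruction complex built on Axin, so that beta-catenin accumulates and acts with TCF and LEF factors in the nucleus. Sfrp proteins bind Wnt ligands outside the cell, several Dkk proteins bind the Lrp co-receptors, and R-spondins, through Lgr receptors, relieve the removal of Frizzled proteins by the ubiquitin ligases Znrf3 and Rnf43. In adipose tissue canonical Wnt signalling is known to hold back the formation of adipocytes from their precursors.

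Because Fzd5 is the gene on which the results below turn, its promoter window is shown first, beside that of Wnt11, the ligand gene with a match to the TCF/LEF core motif whose level is described below. The 250 bases before a start of each gene are given, from the RefSeq promoters of build GRCm38.p6, written from 5′ to 3′ on the strand of the gene. For Fzd5 (chr1:64737751-64738000, minus strand) nothing is capitalised, since no motif searched was found, and for Wnt11 (chr7:98834862-98835111, plus strand) the capitals mark the motif match, which begins 51 bases before the start and reads as the reverse complement of CTTTGAT. The window of another Wnt11 start, not printed (chr7:98838595-98838844 before the start), held no match to CTTTGAT on either strand.
Fzd5: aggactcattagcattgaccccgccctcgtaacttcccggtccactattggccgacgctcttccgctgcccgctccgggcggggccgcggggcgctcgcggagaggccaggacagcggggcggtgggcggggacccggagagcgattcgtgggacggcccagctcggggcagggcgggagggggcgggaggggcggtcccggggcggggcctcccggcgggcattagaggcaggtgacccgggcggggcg
Wnt11: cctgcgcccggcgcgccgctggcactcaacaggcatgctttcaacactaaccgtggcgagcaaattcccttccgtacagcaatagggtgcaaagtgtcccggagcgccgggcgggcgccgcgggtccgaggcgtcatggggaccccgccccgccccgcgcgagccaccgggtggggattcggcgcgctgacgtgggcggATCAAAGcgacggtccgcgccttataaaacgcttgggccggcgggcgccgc
Motifs were searched in windows that run on to 50 bases after the start; 28 of the 43 genes had such a window, with 37 windows in all, since some genes have more than 1 start. On either strand, the TCF/LEF core CTTTGAT lay in 2 of these windows (those of Wnt11 and Wnt5b, 5.41%, against 3.73% of all 32851 windows), and CTTTGTT in 2 (those of Fzd7 and Tcf7l2, 5.41%, against 5.85%). The E-box CACGTG lay in windows of Fzd9, Lef1 and Wnt9a (8.11%, against 7.15% of all windows). The D-box TTATGTAA (0.938% of all windows) and the AP-1 site TGACTCA (5.2%) each lay in 1 window, that of Wnt5b, and the cAMP response element TGACGTCA (1.79%) in none; no motif searched contains another. None of these motifs was found in the Fzd5 window, which says only that these letters are not in those 300 bases. Its GC content was 75.7%, against a median of 67.3% over the windows of these genes and 52.7% over all windows, and 3.34% of all windows were as GC-rich or more.

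The libraries held 18.5 to 34.7 M reads in the listed genes (M, mega), and values are the deposited signal, which is CPM scaled by TMM; 1 read was worth 0.0278 to 0.0601 of this signal. The tissue label was borne out by its markers: the adipocyte genes Adipoq and Plin1 averaged 2471 ± 461 and 1310 ± 235 in ZT15 RUN (SD, n = 6), and the sum of 7 adipocyte markers ranged from 10588 to 30825 over the 24 libraries. Other cells were present to differing degrees. In 3 libraries (ZT15 SED replicates 3 and 5 and ZT3 RUN replicate 4) the B cell gene Cd79a stood at 14.1, 54.6 and 99.2, against at most 1.33 in the other 21, and the sum of 12 lymphocyte markers at 270.4, 887.5 and 1398, against 7.63 to 19.0. The inguinal lymph node lies inside this depot. For the results they move most, values without these 3 libraries (6, 4, 5 and 6 libraries left in ZT15 RUN, ZT15 SED, ZT3 RUN and ZT3 SED) are given as well.

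The genes differed widely in level. Per kilobase of merged exons, the mean signal over the 24 libraries was highest for Fzd4 (66.8 per kb), a receptor for Wnt ligands and for norrin, followed by Ctnnb1 (61.8 per kb), which encodes beta-catenin, and the co-receptor Lrp6 (26.5 per kb). Next came the antagonist Sfrp2 (14.7 per kb), the R-spondin receptor Lgr4 (10.6 per kb), the scaffold Axin1 (8.64 per kb), and Fzd1 and Lrp5 (8.20 per kb each). The lowest were Lgr5 (0.0476 per kb), Wnt16 (0.0696 per kb) and Lgr6 (0.0721 per kb). In signal not divided by length, 3 of the 43 genes had a mean of 100 or more, 14 of 10 to 100, 16 of 1 to 10 and 10 under 1, and the last group rests on few reads per library (a median of 5 for Lgr6 and 20 for Wnt6). No ligand reached the level per kb of the 4 most abundant receptor genes, the highest ligand being Wnt5a at 3.62 per kb.

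**Figure D1:**
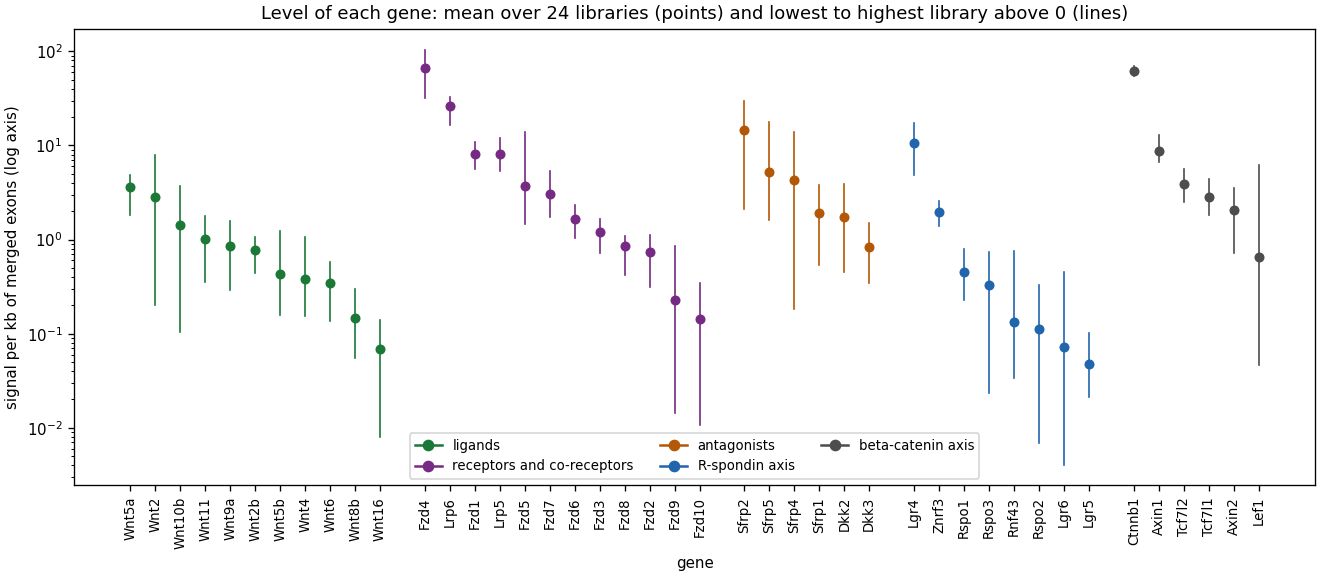
Mean signal per kb of merged exons (log axis) of each of the 43 genes, ordered within its role, with a line from the lowest to the highest library above 0. Fzd4 and Ctnnb1 stand highest at 66.8 and 61.8 per kb, Ctnnb1 has the shortest line, and Sfrp4, Wnt2, Wnt10b and Lef1 have lines that span more than a factor of 10.

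Spread between libraries also differed by gene. Ctnnb1 ran from 286 to 360 in signal over all 24 libraries, a ratio of 1.26, and Znrf3 from 11.0 to 20.1, a ratio of 1.82. At the other end, Lef1 ran from 0.408 to 54.3 (133-fold), Sfrp4 from 0.771 to 57.9 (75.1-fold), Wnt2 from 0.456 to 17.9 (39.3-fold), Wnt10b from 0.351 to 12.6 (35.8-fold) and Sfrp2 from 4.56 to 63.8 (14.0-fold). Wide ratios also belonged to genes of few reads, Rspo2 (47.6-fold), Fzd10 (32.1-fold), Rspo3 (31.2-fold), Rnf43 (22.1-fold) and Wnt16 (17.6-fold), and Fzd9 and Lgr6 were listed at 0 in 1 and 3 libraries. The median within-group SD on the log2 scale was 0.36 for these 43 genes and 0.23 for all genes.

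The comparison of exercise with sham at ZT15 asks which transcripts differ after a bout in the early active phase. Of the 43 genes, 1 rose and none fell (limma on log2(value + 1), Benjamini-Hochberg adjusted p under 0.05 over all 16233 genes); over all genes 0.641% were called, 0.481% higher. That gene was Fzd5 (ENSMUSG00000045005), a Frizzled receptor that in mouse is known for roles in yolk sac vessels, the intestine and the eye. Its signal ran from 33.6 through a median of 52.6 to 96.8 in the ZT15 RUN libraries, against 16.4, 19.8 and 29.5 in ZT15 SED. Every ZT15 RUN library was therefore above every ZT15 SED library; 1% of all genes were separated in this way in the higher direction. The means were 56.3 ± 22.7 in ZT15 RUN and 20.5 ± 4.78 in ZT15 SED (SD, n = 6 each), a ratio of 2.74, and the log2 difference was 1.35 ± 0.20 (SE; limma adjusted p = 0.00508). By unadjusted p, Fzd5 ranked 1 among the 16233 genes in this comparison. The highest library, ZT15 RUN replicate 5 at 96.8, was also the shallowest at 18.5 M reads, and without it the log2 difference was 1.18 (adjusted p = 0.0193). ZT15 RUN replicates 4 and 5, highest for Fzd5 at 62.0 and 96.8, also had the highest adipocyte marker sums of all libraries (30825 and 29892). In ZT15 RUN replicates 1, 2, 3 and 6, Fzd5 stood at 59.9, 45.3, 33.6 and 40.1 beside sums of 24974, 20718, 23327 and 19844. The ZT15 SED sums ran from 13197 to 26782. The next highest sums, 27482 in ZT3 RUN replicate 2 and 26782 in ZT15 SED replicate 3, went with Fzd5 at 19.2 and 21.1. The part of adipocytes in the Fzd5 level was not tested. Over the libraries left out one at a time the difference stayed between 1.18 and 1.48 (adjusted p 0.00130 to 0.0200), and without the 3 libraries high in Cd79a it was 1.30 (adjusted p = 0.0337).

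At ZT3 the same comparison found no difference past the threshold for Fzd5. Its signal ran from 10.2 through 15.4 to 19.2 in ZT3 RUN, against 10.2, 11.1 and 14.6 in ZT3 SED, and the groups overlapped. The means were 15.0 ± 3.63 and 11.8 ± 1.73 (SD, n = 6 each), with a log2 difference of 0.30 ± 0.20 (limma adjusted p = 0.989). The difference between the 2 exercise effects, at ZT15 minus at ZT3, was 1.05 ± 0.28 on the log2 scale (unadjusted p = 0.00118). It ranked 13 among all genes and did not pass after adjustment (limma adjusted p = 0.583), so Fzd5 is not shown to respond differently at the 2 times. DESeq2 on the recovered reads called this interaction (adjusted p = 0.0272); the other alternatives ran from 0.178 (edgeR) to 1.00.

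In exercised mice Fzd5 was higher at ZT15 than at ZT3. The ZT15 RUN libraries (33.6 to 96.8) all lay above the ZT3 RUN libraries (10.2 to 19.2), a ratio of means of 3.76 and a log2 difference of 1.79 ± 0.20 (limma adjusted p = 1.54e-05), with 1.5% of all genes separated in the higher direction. In sham mice the ZT15 SED libraries (16.4 to 29.5) also lay above the ZT3 SED libraries (10.2 to 14.6), where 1.2% of all genes were separated in this direction. That difference, 0.74 ± 0.20 with a ratio of 1.74, did not pass the threshold (limma adjusted p = 0.0734; 0.0140 to 0.101 over the alternatives). It passed when ZT15 RUN replicate 5 was left out (0.0309), when only the groups compared were fitted (0.0216) and in DESeq2 (0.0140). The exercise and time comparisons share libraries, so the values above are not independent of each other. In bulk tissue, fewer cells of a type and less RNA per cell cannot be told apart. The Fzd5 exons share 1233 bases (17.8%) with a gene on the opposite strand, Gm38058, and without the strand setting of the counting their reads cannot be told apart; no 38-base word, the read length, of the Fzd5 transcripts lay in a transcript of another of the 43 genes. Exons of Sfrp2 (16.1%), Ctnnb1 (14.6%), Rspo3 (13.1%), Lef1 and, over smaller shares, Axin2, Fzd6, Tcf7l1, Wnt11 and Wnt5a also overlap genes on the opposite strand, with the same limit.

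**Figure D2:**
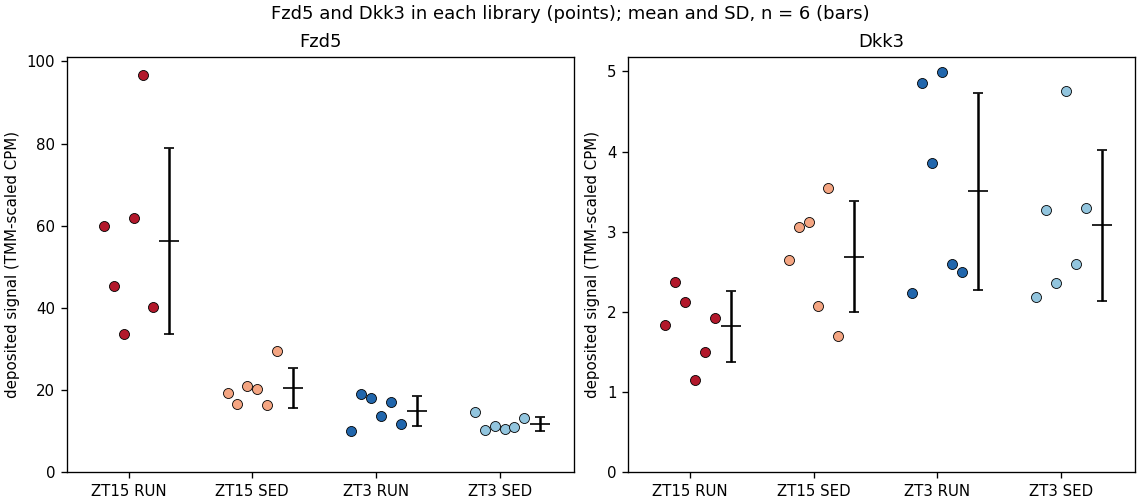
Deposited signal of Fzd5 (left) and Dkk3 (right) in each of the 24 libraries (points, by group, replicates from left to right) with the group mean and SD (bars, n = 6). The ZT15 RUN libraries of Fzd5 sit between 33.6 and 96.8, all above the other 18 libraries, and Dkk3 averages 1.82 in ZT15 RUN against 3.50 in ZT3 RUN.

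The other receptors and co-receptors did not pass the threshold in either exercise comparison. At ZT15, Fzd10 averaged 0.266 ± 0.168 in RUN and 0.614 ± 0.311 in SED (log2 difference -0.34 ± 0.15, limma adjusted p = 0.358; -0.21 without the 3 libraries high in Cd79a), a level of a few reads per library. At ZT3, 10 of the 12 receptor genes had a log2 difference below 0 and the median was -0.16, against 0.01 for all genes. Without the 3 libraries high in Cd79a, 9 of the 12 lay below 0 and the median was -0.03, against 0.00 for all genes. One of the 3, ZT3 RUN replicate 4, was the lowest of the 24 libraries for Fzd1, Fzd4, Fzd8, Lrp5 and Lrp6. That library was the lowest for 10 of the 43 genes and for 19.5% of all genes. The lowest unadjusted p among the 43 genes between ZT3 RUN and ZT3 SED belonged to Fzd6, Fzd7 and Lrp6. Fzd7, a receptor found in many stem and precursor cells, averaged 12.5 ± 3.17 in ZT3 RUN and 16.9 ± 1.55 in ZT3 SED (log2 difference -0.44 ± 0.19). Fzd6 averaged 6.98 ± 1.46 and 8.85 ± 1.76, and Lrp6 332 ± 60.8 and 387 ± 29.5, in ZT3 RUN and ZT3 SED. All of these ZT3 differences had a limma adjusted p of 0.989. Without the 3 libraries the Fzd7 difference at ZT3 was -0.34. Fzd7 also lay lower in RUN at ZT15, with a log2 difference of -0.39 in edgeR with all libraries (adjusted p = 0.392). In limma without the 3 libraries the Fzd7 difference at ZT15 was -0.56 (adjusted p = 0.202). Lrp6 lay the other way at ZT15, at 389 ± 40.2 in RUN and 340.2 ± 43.7 in SED, and its interaction term was 0.43 ± 0.16 (adjusted p = 0.583). Without the 3 libraries the Lrp6 difference at ZT3 was -0.13, against -0.24 with them, and the interaction 0.25 (adjusted p = 1.00); Lrp6 stood at 225 in ZT3 RUN replicate 4.

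Fzd4, the most abundant receptor, averaged 514 ± 107 in ZT15 RUN, 456 ± 139.6 in ZT15 SED, 393 ± 113 in ZT3 RUN and 434 ± 75.7 in ZT3 SED. At both times the difference between RUN and SED was smaller than the SD of each group. The ZT15 RUN and ZT3 RUN means lay further apart than either SD, but Fzd4 did not pass there. Its log2 difference was 0.39 in edgeR (adjusted p = 0.252), and 0.25 in limma without the 3 libraries high in Cd79a (adjusted p = 0.441). By time of day, Fzd3 averaged 12.4 ± 2.01 in ZT15 SED and 17.1 ± 2.33 in ZT3 SED (log2 difference -0.44 ± 0.15, limma adjusted p = 0.190). Fzd2 was lower at ZT15 than at ZT3 in RUN and in SED by -0.42 and -0.36 on the log2 scale, and neither passed (adjusted p = 0.196 and 0.464); without the 3 libraries these were -0.49 and -0.17. Beside Fzd2, which shares 14 of its 3626 38-base words with Fzd1, Fzd1 and Fzd7 also share a few words with each other.

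Among the 11 ligands none passed the threshold in any of the 5 comparisons. Wnt5a, which acts mainly through the non-canonical branch, was the most abundant at 27.8 ± 6.20 in ZT15 RUN, 30.8 ± 6.16 in ZT15 SED, 24.5 ± 8.34 in ZT3 RUN and 30.2 ± 6.15 in ZT3 SED. Wnt11, a ligand known for non-canonical signalling, ran from 2.72 through 4.76 to 7.35 in ZT15 RUN, against 1.47, 3.65 and 5.01 in ZT15 SED. These groups overlapped, and the log2 difference of 0.48 ± 0.21 did not pass (limma adjusted p = 0.332; 0.170 to 0.484 over the alternatives). Wnt8b averaged 0.362 ± 0.125 in ZT15 RUN and 0.602 ± 0.108 in ZT15 SED, a median of 13.5 reads per library, with a log2 difference of -0.24 ± 0.09 (adjusted p = 0.291). Wnt10b, known to restrain adipogenesis in mouse, averaged 5.10 ± 4.41 in ZT15 RUN, 3.66 ± 2.64 in ZT15 SED, 4.99 ± 1.83 in ZT3 RUN and 5.64 ± 1.44 in ZT3 SED, and at both times the difference between RUN and SED was smaller than the SD of each group.

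Among the 6 antagonists, Dkk3 was called in 1 comparison. Dkk3, a divergent Dickkopf protein, ran from 1.15 through 1.89 to 2.38 in ZT15 RUN, against 2.23, 3.23 and 4.99 in ZT3 RUN. The ranges overlapped, since 2.38 in ZT15 RUN lies above 2.23 in ZT3 RUN, and in ZT3 RUN 3 libraries lay between 2.23 and 2.60 and 3 between 3.86 and 4.99. The means were 1.82 ± 0.440 and 3.50 ± 1.23, and Dkk3 fell by 0.65 ± 0.18 on the log2 scale (limma adjusted p = 0.0393, with 0.00668 to 0.124 over the alternatives). The call was lost under quantile normalization (adjusted p = 0.0551), with only the groups compared in the fit (0.124), without the 3 libraries high in Cd79a (0.0757) and when any of ZT15 RUN replicates 1, 4, 5 and 6 or ZT3 RUN replicates 2, 3 and 4 was left out (up to 0.104). In exercised mice, then, 2 of the 43 genes were called by time of day, Fzd5 higher and Dkk3 lower, where 4.19% of all genes were called (2.56% higher and 1.63% lower). At ZT15, Dkk3 averaged 1.82 ± 0.440 in RUN and 2.69 ± 0.695 in SED (log2 difference -0.38 ± 0.18, adjusted p = 0.372; -0.26 without the 3 libraries).

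Sfrp5, an antagonist of Wnt5a that adipocytes secrete in mouse, averaged 13.9 ± 10.4 in ZT15 SED and 6.49 ± 1.92 in ZT3 SED, a log2 difference of 0.76 ± 0.36 that did not pass (limma adjusted p = 0.396). ZT15 SED replicate 6 stood at 33.7, above the next highest library at 19.8, and without it the difference was 0.46 (adjusted p = 0.606). Without ZT15 SED replicate 5, high in Cd79a and lowest for Sfrp5 at 3.09, it was 1.08 (adjusted p = 0.110), and without all 3 libraries high in Cd79a 1.08 (adjusted p = 0.0869). Sfrp2 averaged 27.7 ± 21.0 in ZT15 RUN, 23.6 ± 15.6 in ZT15 SED, 36.0 ± 18.4 in ZT3 RUN and 39.6 ± 16.2 in ZT3 SED. For Sfrp4 the means in the same order of groups were 17.3 ± 14.7, 13.9 ± 12.3, 22.0 ± 18.9 and 19.2 ± 14.3. For both genes the differences between RUN and SED at either time were smaller than the SD of each group compared.

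Some libraries at the ends of the ranges of Sfrp2, Sfrp4, Wnt2 and Wnt10b also stood at the ends of stromal marker sums. ZT3 RUN replicate 2 had the highest Sfrp2 (63.8), Sfrp4 (57.9) and Wnt2 (17.9) of the 24 libraries, the highest sum of 6 macrophage markers (1646) and the second highest sum of 8 preadipocyte and fibroblast markers (14014). ZT15 RUN replicate 2 had the highest Wnt10b (12.6), Dkk2 (14.5), Sfrp1 (16.7) and Rspo3 (2.28), the second highest macrophage sum (1484) and the highest fibroblast sum of its group (11275). ZT15 SED replicate 5, one of the libraries high in Cd79a, had the lowest Sfrp4 (0.771), Wnt2 (0.456), Wnt10b (0.351) and Sfrp1 (2.35), and the lowest macrophage (387) and fibroblast (3082) sums. ZT15 RUN replicate 5 had the lowest Sfrp2 (4.56), with Sfrp4 at 1.98 and Wnt10b at 0.601; its macrophage sum was low (511) but its fibroblast sum (8155) was not, lying above that of ZT15 RUN replicate 1 (6989), where Sfrp2 stood at 26.6. Within ZT15 RUN, replicate 2 held the highest value for 18 of the 43 genes (41.9%), against 22.8% of all genes. Libraries of other groups also exceeded their share. Within their groups these included ZT15 SED replicate 2 (32.6% against 10.4%), ZT3 RUN replicate 3 (34.9% against 11.0%) and ZT3 SED replicate 4 (37.2% against 16.3%). ZT3 RUN replicate 3 had a macrophage sum of 954 and a fibroblast sum of 9870. The part of these cells in the levels was not tested.

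**Figure D3:**
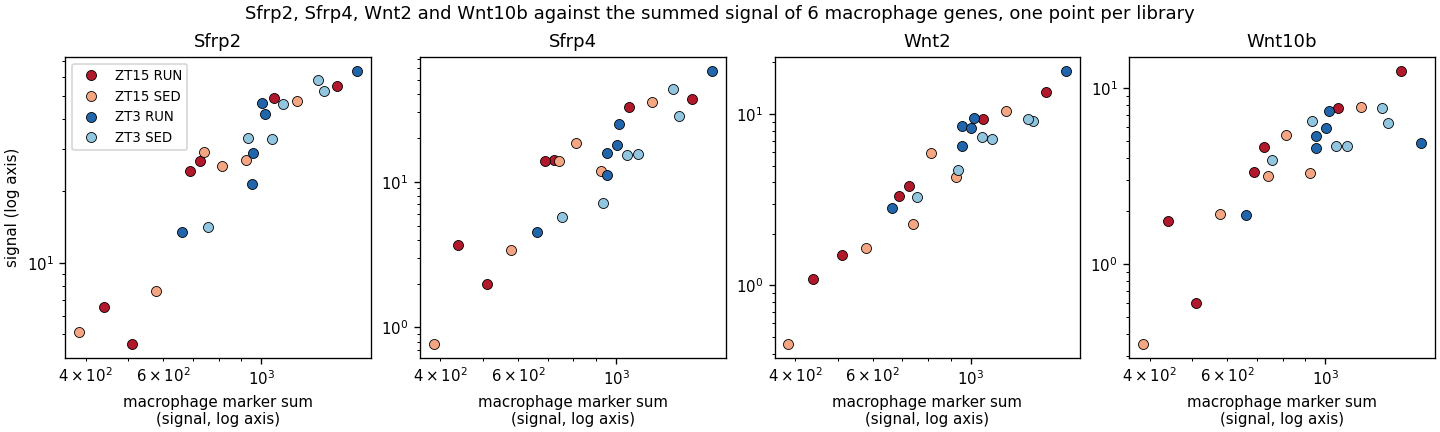
Signal of Sfrp2, Sfrp4, Wnt2 and Wnt10b (log axis) against the summed signal of 6 macrophage markers (log axis), 1 point per library, coloured by group. The lowest values of Sfrp4, Wnt2 and Wnt10b lie at the lowest marker sum of 387, and the groups are mixed along the range.

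In the R-spondin axis none of the 8 genes passed in any comparison. Lgr4, the R-spondin receptor with by far the highest level of its family here, averaged 65.4 ± 18.7 in ZT15 RUN, 70.7 ± 19.7 in ZT15 SED, 56.3 ± 15.3 in ZT3 RUN and 57.7 ± 10.3 in ZT3 SED. Znrf3, a ligase that removes Frizzled receptors, averaged 16.2 ± 1.28, 16.4 ± 2.88, 13.8 ± 2.58 and 14.9 ± 2.34 in the same order. Lgr6 was listed at 0 in 3 libraries and reached 3.07, 2.90 and 1.22 in ZT15 RUN replicates 1 and 6 and ZT15 SED replicate 1. The same 3 libraries were highest for Fzd9 (1.26, 1.62 and 1.94), for the sum of 8 skeletal muscle markers (18329, 39784 and 35522) and for the sum of 5 brown and beige adipocyte markers (1372, 1431 and 616); the part of those cells was not tested.

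In the beta-catenin axis none of the 6 genes passed in any comparison. Ctnnb1 averaged 318 ± 20.5 in ZT15 RUN, 328 ± 14.1 in ZT15 SED, 320.3 ± 30.9 in ZT3 RUN and 317 ± 19.0 in ZT3 SED. Axin2, a feedback gene widely used as a readout of canonical signalling and named here after its values were seen, averaged 8.95 ± 3.71 in ZT15 RUN and 13.0 ± 2.60 in ZT15 SED (log2 difference -0.56 ± 0.31, limma adjusted p = 0.466). At ZT3 it averaged 10.5 ± 4.74 in RUN and 12.5 ± 5.47 in SED (-0.24 ± 0.31, adjusted p = 0.989). Tcf7l2 and Tcf7l1, TCF factors that bind beta-catenin, had log2 differences of -0.31 each between ZT3 RUN and ZT3 SED (adjusted p = 0.989 for both; -0.21 and -0.22 without the 3 libraries high in Cd79a).

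Lef1, Rnf43 and Axin1 were highest in the 3 libraries with high lymphocyte markers. Lef1, a TCF family factor that T cells express at high level, stood at 15.2, 54.3 and 51.3 in ZT15 SED replicates 3 and 5 and ZT3 RUN replicate 4, against 0.408 to 1.75 in the other 21 libraries. Rnf43 stood at 1.55, 4.94 and 4.96 in these 3, against 0.224 to 1.20. Axin1 stood at 35.1, 41.9 and 49.8, against 25.3 to 34.9, so only the upper pair is clear of the rest. No other of the 43 genes had these as its 3 highest libraries. The share of all genes with the same 3 on top was not computed. ZT15 SED replicates 3 and 5 and ZT3 RUN replicate 4 were highest of the 24 for 0.752%, 3.91% and 26.1% of all genes. With all libraries, Lef1 averaged 1.08 ± 0.510 in ZT15 RUN and 12.1 ± 21.5 in ZT15 SED, and without the 3 libraries 1.08 ± 0.510 (n = 6) and 0.771 ± 0.246 (n = 4). The log2 difference between ZT15 RUN and ZT15 SED was -1.15 ± 0.83 with all libraries (limma adjusted p = 0.594) and 0.21 ± 0.17 without the 3 (adjusted p = 0.733). The sign of the Lef1 difference thus turned when these libraries were left out. DESeq2 with all libraries called Lef1 lower in ZT15 RUN (-3.48, adjusted p = 0.0489), and both Lef1 (-6.88, adjusted p = 0.00247) and Rnf43 (-3.36, adjusted p = 0.0402) for the interaction, where DESeq2 called 3.34% of all genes at ZT15 and 1.47% for the interaction. In limma the Rnf43 interaction was -0.96 with all libraries (adjusted p = 0.583) and -0.18 without the 3 (adjusted p = 1.00), and that of Lef1 was -1.82 and 0.38.

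**Figure D4:**
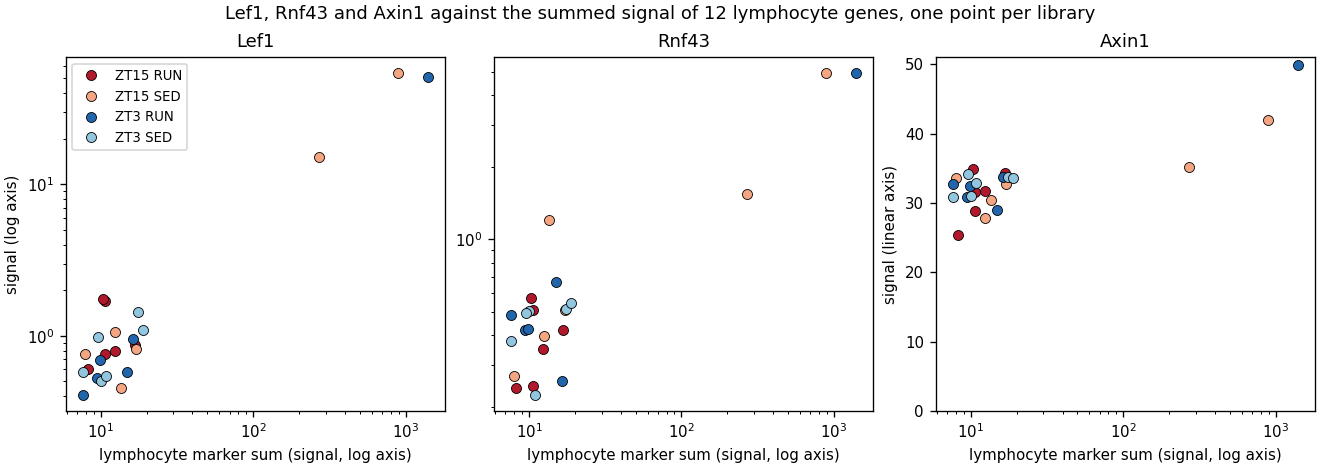
Signal of Lef1 and Rnf43 (log axes) and Axin1 (linear axis from 0) against the summed signal of 12 lymphocyte markers (log axis), 1 point per library, coloured by group. The 3 libraries with sums of 270.4, 887.5 and 1398 lie apart from the other 21, and they belong to ZT15 SED and ZT3 RUN.

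As a list, the 43 genes had medians near those of all genes, and their signs depended on the 3 libraries high in Cd79a. At ZT15 their median log2 difference between RUN and SED was 0.06, against 0.00 for all genes, with 23 above 0 and 20 below; without the 3 libraries it was -0.03, against -0.01 for all genes, with 17 above and 26 below. Of the 43, 5 had an unadjusted p under 0.05 (12.7% of all genes did). At ZT3 none was called by limma, edgeR or DESeq2, as for all genes (0% in each), and 3 had an unadjusted p under 0.05 (2.27% of all genes); the median was -0.05 against 0.01, and 0.02 against 0.00 without the 3 libraries. For the interaction 30 lay above 0 and 13 below (10 of the 11 ligands and 10 of the 12 receptors above), with a median of 0.10 against 0.00 for all genes. Without the 3 libraries 16 lay above and 27 below (3 ligands and 6 receptors above), with a median of -0.09 against -0.01. Of the 6 antagonists, 4 lay above 0 for the interaction (median 0.13), and 0 without the 3 libraries (-0.29). At ZT15, 4 of the antagonists lay above 0 between RUN and SED (0.13), and 0 without the 3 libraries (-0.21). The interaction had 0 of the 43 called by limma and by edgeR, which each called 0% of all genes, and 3 by DESeq2 (Fzd5, Lef1 and Rnf43), which called 1.47%; in limma 3 had an unadjusted p under 0.05, against 7.84% of all genes. Between ZT15 SED and ZT3 SED limma and edgeR each called 0 of the 43 and 1.18% of all genes, and in limma 3 had an unadjusted p under 0.05, against 12.1%. DESeq2 called 2 there (Fzd5 and Lef1) and 3.36% of all genes; the limma difference of Lef1 was 1.31 with all libraries and -0.06 without the 3. Medians for ZT15 against ZT3 were -0.01 in RUN and -0.03 in SED, against -0.01 and 0.02 for all genes. Without the 3 libraries they were -0.03 in RUN and 0.03 in SED, against 0.00 in both for all genes.

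**Figure D5:**
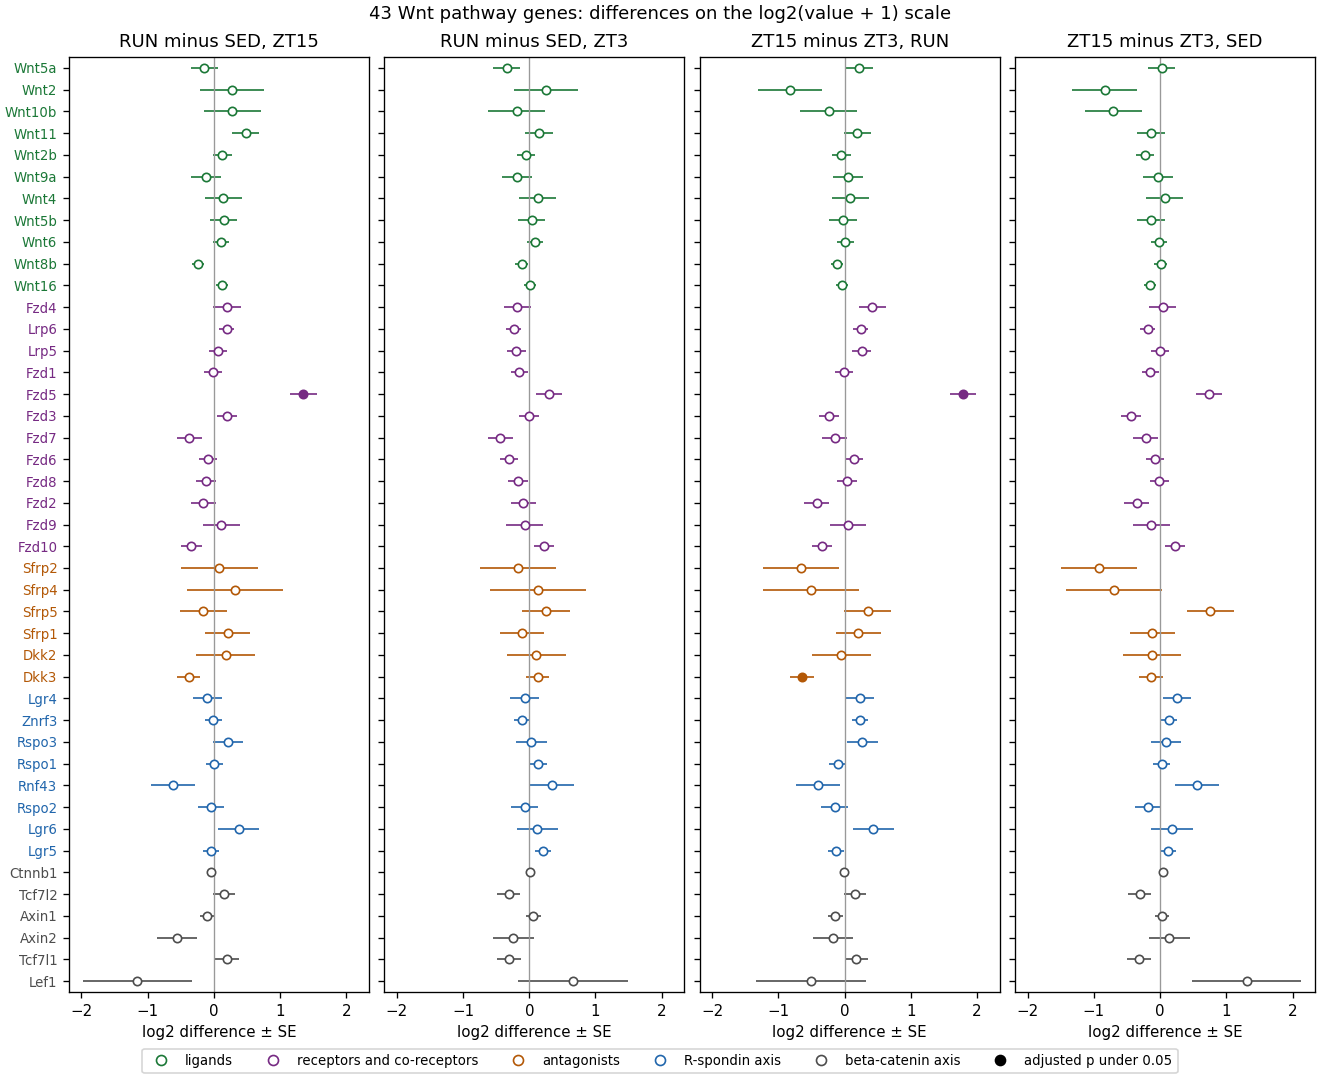
Difference on the log2(value + 1) scale with its SE for each of the 43 genes in 4 comparisons, grouped by role and, within a role, from high to low mean signal; filled points have an adjusted p under 0.05. Fzd5 is filled for RUN minus SED at ZT15 (1.35) and for ZT15 minus ZT3 in RUN (1.79), Dkk3 is filled between ZT15 RUN and ZT3 RUN (-0.65), and Lef1 has the widest error.

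Around these genes, 76 other genes were looked at in 7 lists. The lists cover further pathway genes, Wnt targets and 8 adipogenic genes that Wnt signalling is known to restrain. None passed in either exercise comparison, in the interaction or between ZT15 SED and ZT3 SED, where limma called 0.641%, 0%, 0% and 1.18% of all genes. In exercised mice 2 of the 76 (2.63%) rose at ZT15 relative to ZT3, close to the 2.56% of all genes called higher, so this count is no result about the pathway. Tle3, a Groucho family co-repressor of TCF factors that in mouse adipocytes also acts with Pparg, ran from 166.8 through 180.8 to 273.9 in ZT15 RUN, against 109.9, 129.7 and 155.9 in ZT3 RUN. The groups did not overlap, as for 1.5% of all genes, and the log2 difference was 0.53 ± 0.14 (limma adjusted p = 0.0370). This call was lost without the 3 libraries high in Cd79a (0.53, adjusted p = 0.0576). Csnk1e, a casein kinase of the Wnt pathway and of the circadian clock, averaged 47.2 ± 6.13 in ZT15 RUN and 34.5 ± 3.99 in ZT3 RUN (0.44 ± 0.09, adjusted p = 0.0102; 0.38 and 0.0161 without the 3 libraries).

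Between ZT15 RUN and ZT15 SED, Tle3 was the 1 gene of the 76 (1.32%) separated without overlap in the higher direction, near the 1% of all genes, at 193.9 ± 40.1 in RUN and 134.0 ± 18.0 in SED, but did not pass (0.52 ± 0.14, limma adjusted p = 0.0912). Csnk1e stood at 47.2 ± 6.13 and 36.7 ± 3.89 (adjusted p = 0.0850). Of 14 genes listed as Wnt targets, 4 had a log2 difference above 0 at ZT15 and the median was -0.06. Among them Ccnd1, a cyclin of the cell cycle, averaged 19.2 ± 4.78 in ZT15 RUN and 21.6 ± 4.87 in ZT15 SED. Of 8 adipogenic genes (Adipoq, Cebpa, Cebpb, Cebpd, Fabp4, Lpl, Plin1 and Pparg), 0 were called in either exercise comparison. At ZT15 all 8 had a log2 difference above 0, with a median of 0.20 (0.10 without the 3 libraries high in Cd79a), and at ZT3 2 of 8, with a median of -0.13 (6 of 8 and 0.04 without them). Many cell type markers lay above 0 at ZT15 as well. These were 5 of 7 for adipocytes (median 0.14, several genes shared with the adipogenic list) and 7 of 8 for preadipocytes and fibroblasts (0.22). For endothelium 6 of 6 did (0.13), for Schwann cells 6 of 6 (0.39) and for skeletal muscle 8 of 8 (1.05). Macrophages had 4 of 6 (0.02), epithelium and skin 1 of 4 (-0.17) and lymphocytes 0 of 12 (-1.53). Without the 3 libraries, adipocytes had 4 of 7 (0.01), preadipocytes and fibroblasts 3 of 8 (-0.03) and skeletal muscle 6 of 8 (0.17). Endothelium (0.07) and Schwann cells (0.35) stayed at 6 of 6, macrophages had 2 of 6 (-0.08) and lymphocytes 3 of 12 (-0.07). The part of these cells was not tested. Of the secretion genes, Wls, which carries Wnt ligands to the cell surface, averaged 108.6 ± 12.5 in ZT15 RUN and 108.7 ± 17.7 in ZT15 SED.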

How the data were processed

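Total RNA of 24 libraries of inguinal white adipose tissue (4 groups of 6) was depleted of ribosomal RNA and sequenced as 38-base read pairs with a stranded kit, per the labels' protocols. The submitters' processing notes name STAR, featureCounts, Subread 1.6.2 and limma 3.48.3. Which build, annotation and strandedness the counts used is not given in the sources used here. The authors deposited 1 column of normalized signal per library. Each value was a whole multiple of 1 step per column (100% whole within 0.01 of a read), and the steps equal TMM scaling recomputed on the recovered reads, so the deposited signal is CPM scaled with TMM; it is not raw counts. Recovered reads ran from 18.5 to 34.7 M (mega) reads per library, and the precision of a low gene is limited by its few reads. No pair of libraries within a group agreed within sampling noise (chi-square over its degrees of freedom was 22.8 or more in all 60 pairs).

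The main test was limma 3.58.1 (R 4.3.3) on log2(signal + 1), with 4 group means over all 24 libraries, a moderated variance with intensity trend and Benjamini-Hochberg adjustment over all 16233 genes, two-sided, threshold 0.05. Fold changes on this scale understate those of low genes. On the recovered reads, edgeR 4.0.16 (quasi-likelihood) and DESeq2 1.42.0 were alternatives; between ZT15 RUN and ZT15 SED they called 121 and 541 genes, against 104 with limma. Other alternatives were quantile normalization, without the lowest 25% of genes by mean, a pseudocount of 0.1, no trend, only the groups compared, runs of 8 title numbers, neighbouring title numbers as a block, no libraries with Cd79a above 5, and leaving out each library. Replicate numbers follow record order and pair nothing.

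Levels per kb used merged exon lengths from GENCODE M21, which held all 43 gene identifiers. The genes named are those past the threshold in a comparison, filled up to 5 by smallest unadjusted p, the most abundant pair of each role, and for other pathway lists those past the threshold or the most abundant; Axin2, Lef1, Rnf43, Axin1 and those named beside marker sums were chosen after their values were seen. The genes, lists and tests were chosen with earlier results of these data known.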

Additional observations from a re-analysis of the deposited data

Results flagged for a closer look

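In 172 groups of 6 libraries (43 genes in 4 groups), 7 held a library whose gap to its neighbour, relative to the range of the group, passed Dixon's 95% limit; chance alone gives about 1 in 20. In ZT3 RUN, replicate 4, which is high in Cd79a, stood apart for 5 genes: high for Lef1 at 51.3, Rnf43 at 4.96 and Axin1 at 49.8, and low for Lgr4 at 28.8 and Wnt9a at 0.973. In ZT15 SED, replicate 3, also high in Cd79a, was low for Wnt2b at 1.85. In ZT15 RUN, replicate 2 was high for Lgr5 at 0.771, a level of a few reads.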

How the results depend on the processing

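Fzd5 was called between ZT15 RUN and ZT15 SED, and between ZT15 RUN and ZT3 RUN, under every alternative run, each library left out included. Over all genes, 104 were called between ZT15 RUN and ZT15 SED (78 higher, 26 lower), 72 under quantile normalization (67 and 5), 22 without the libraries with Cd79a above 5, 19 with the replicate block and 541 with DESeq2 (324 and 217). Between ZT15 RUN and ZT3 RUN, 680 were called (415 higher, 265 lower), 426 under quantile normalization, 109 with only the groups compared and 1575 with DESeq2 (759 and 816). Between ZT15 SED and ZT3 SED, 191 were called, 287 with runs of title numbers as a covariate and 544 with DESeq2. DESeq2 called 239 genes for the interaction, where limma called 0. With DESeq2, 2 of the 43 genes were called between ZT15 RUN and ZT15 SED, 3 for the interaction and 2 between ZT15 SED and ZT3 SED. Between ZT15 RUN and ZT3 RUN, 1 of the 43 was called under quantile normalization, with only the groups compared and without the libraries high in Cd79a, where Dkk3 was lost; between ZT15 SED and ZT3 SED, 1 with only the groups compared (Fzd5). Leaving out 1 library at a time gave 16 to 293 genes called between ZT15 RUN and ZT15 SED, 330 to 1004 between ZT15 RUN and ZT3 RUN, and 130 to 388 between ZT15 SED and ZT3 SED; of the 43 genes 1 to 1, 1 to 2 and 0 to 1 were called, and 0 to 0 at ZT3 and for the interaction. The cause of these changes was not tested. For genes taken in each comparison by threshold or smallest unadjusted p, no log2 difference changed its sign. Of these results, 813 stayed on their side of the threshold, 5 gained a call and 10 lost it. Genes named only for their abundance were not in this count. Between ZT15 RUN and ZT15 SED, the log2 difference of Sfrp2 was 0.23 in edgeR with all libraries. In limma without the libraries high in Cd79a it was -0.21. These values differ both in the test and in the libraries, so they do not show which of these turned the sign.

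Neighbouring title numbers join a RUN and a SED library of the same time, but the labels state no pairing. Their deviations correlated at -0.443 to 0.78, above 0.1 in 7 of 12 pairs, which does not settle whether they were paired. The replicate block was left out of the main fit and run as an alternative. With it Fzd5 had a limma adjusted p of 0.0495 between ZT15 RUN and ZT15 SED, and no other of the 43 genes was called. Counting error limits the 10 genes with a mean signal under 1.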
